A study of Mus musculus with 9 samples.

Results

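The TGF-beta genes described here are 10 mouse genes, chosen by symbol from the 36346 genes of the deposited expression table: the ligands Tgfb1, Tgfb2, Tgfb3 and Inhba, the binding protein Ltbp1, the receptors Tgfbr1 and Tgfbr2, the signalling proteins Smad3 and Smad7, and the induced matrix protein Tgfbi. All 10 symbols were found once, so the description covers 10 of 10 members. They were measured by RNA sequencing in the brain of wild type C57BL/6 mice 72 hours after a control procedure (sham), after intracerebral haemorrhage (ICH), or after ICH with pterostilbene (ICH+PTE), a stilbenoid related to resveratrol. Each group held 3 mice, per the series' design text, with 1 library each and 9 in all. The ICH+PTE samples share the haemorrhage with the ICH samples, and no group with pterostilbene and without injury is analysed here. Nothing is said in the sources used here of the brain region, the way the haemorrhage was made, the dose, or the age and sex of the mice. Values are FPKM, fragments scaled to transcript length and to the mapped fragments of the library, a unit in which genes can be compared with each other within a library.

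TGF-beta proteins are secreted in a latent form, bound to their own propeptide and often to a latent TGF-beta binding protein that holds the complex in the matrix. Once freed, for example by integrins or thrombospondin, the ligand binds the type II receptor Tgfbr2, which activates the type I receptor Tgfbr1, and this phosphorylates Smad2 and Smad3, which enter the nucleus with Smad4. Smad7 is an inhibitory member that blocks the active receptor and is itself induced by the pathway. In the mouse brain TGF-beta keeps microglia in their resting state, and after injury it is known for its part in scar formation and matrix deposition.

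Brain samples with ICH held far more transcript of Tgfb1, of both receptors and of the target Tgfbi than sham samples, while Tgfb2 did not pass the test and Smad3 and Inhba were lower. Samples with ICH and pterostilbene held much less of Tgfb1, Tgfbr1, Tgfbr2 and Tgfbi than samples with ICH alone. Tgfbr1 was then close to its sham level, whereas Tgfb1, Tgfbr2 and above all Tgfbi were still higher than in sham. Inhba, which passed the filter for testing only with the sham libraries, was lowest in ICH+PTE. In bulk tissue, fewer cells of a type and less RNA per cell cannot be told apart.

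The samples differed widely beyond these genes. With limma, 63.7% were called (adjusted p under 0.05) of the 15376 genes tested between ICH and sham, 56.9% between ICH+PTE and ICH and 23.4% between ICH+PTE and sham. The summed FPKM of 8 macrophage markers was 92.9 to 171 in sham, 7822 to 10479 with ICH and 152 to 524 in ICH+PTE. None of the 8 was at 0 throughout a group. In ICH that sum was mostly Spp1 (4510 to 6272) and Lyz2 (2432 to 3086). Between ICH+PTE and sham 4 of the 8 were called higher and 4 were not called. For 6 microglial markers the sums were 113 to 153, 536 to 678 and 108 to 209. For 8 markers of mural cells and fibroblasts they were 30.8 to 39.9, 156 to 261 and 45.4 to 61.4, and for 6 endothelial markers 46.9 to 58.1, 136 to 141 and 87.1 to 127. Markers of neurons ran the other way, with 361 to 400 in sham, 120 to 166 with ICH and 272 to 438 in ICH+PTE. The sums of 6 oligodendrocyte markers were 822 to 1524, 1202 to 1782 and 638 to 1003, and those of 6 astrocyte markers 344 to 492, 863 to 925 and 547 to 736. In ICH the astrocyte sum was mostly Gfap, which alone was at 623 to 709 FPKM. Between ICH and sham 4 astrocyte markers were called higher and 1 was not called. Slc1a2 was called lower, with a mean of 144 FPKM in sham and 78.2 in ICH (-0.90 ± 0.18, adjusted p = 0.00128). Neutrophil markers were at 0.741 to 1.45, 20.3 to 32.1 and 14.2 to 28.5, and 5 erythroid genes at 12.1 to 32.5, 60.5 to 92.3 and 30.5 to 266, with 1 of the 6 neutrophil genes at 0 throughout sham and 1 throughout ICH. Choroid plexus and ependymal markers were highest in the library numbered 1 of each group (957, 894 and 399.6 against at most 264 elsewhere). Of 12 small-intestine genes, 3 passed the filter for testing, and the other 9 summed to 0.594 to 1.41 in sham, 0.878 to 1.06 with ICH and 2.74 to 4.03 in ICH+PTE, with 6 of the 12 at 0 throughout sham, 3 throughout ICH and 0 throughout ICH+PTE. The part of these cell types in the results on TGF-beta genes was not tested.

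Coordinates are those of the deposited table, which for all 10 genes equal those of GENCODE M21 on GRCm38. Tgfb1 (chromosome 7, 25687002 to 25705077) encodes the ligand that immune cells, microglia and platelets make. It stood at 1.16, 1.47 and 0.920 FPKM in the sham libraries, at 11.3, 14.9 and 15.0 in ICH and at 2.005, 4.29 and 2.98 in ICH+PTE. The 3 groups did not overlap, and every ICH library held more than every other library. Mean FPKM was 11.6-fold that of sham in ICH, a difference of 3.08 ± 0.23 on the log2(FPKM + 0.5) scale (± standard error, limma adjusted p = 3.32e-06). From ICH to ICH+PTE it fell by 2.03 (standard error 0.23, adjusted p = 7.35e-05), and ICH+PTE remained 1.06 ± 0.23 above sham (adjusted p = 0.00927). The macrophage marker sums given above were also highest in ICH and between the others in ICH+PTE, apart from an overlap of sham and ICH+PTE; their part in this result was not tested.

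Tgfb2 (chromosome 1, 186622792 to 186705989), a ligand of astrocytes and neurons, stood at 1.37, 1.28 and 0.991 FPKM in sham, 1.25, 1.19 and 1.24 in ICH and 1.86, 1.10 and 1.53 in ICH+PTE. The groups overlapped in every comparison and none was called. The difference between ICH and sham was 0.02 ± 0.17 (adjusted p = 0.933), and its sign changed to -0.13 with quantile normalization and with TPM, to -0.25 without haemoglobin and mitochondrial genes (here and elsewhere with the remaining genes rescaled to TPM) and to -0.079 without sham 3. Tgfb3 (chromosome 12, 86056745 to 86079041), the third ligand, had 3.95, 3.09 and 3.08 FPKM in sham, 4.83, 5.29 and 4.80 in ICH and 3.07, 3.99 and 4.23 in ICH+PTE. All ICH libraries lay above all others, and Tgfb3 was 0.51 ± 0.14 higher in ICH than in sham (adjusted p = 0.0089). That call was lost with TPM (adjusted p = 0.0534) and without haemoglobin and mitochondrial genes (0.151). Its lower value in ICH+PTE than in ICH (-0.37 ± 0.14, adjusted p = 0.0423) was near the threshold. It held in 5 of 19 other settings, and was lost without any 1 of sham 2 (0.0547), sham 3 (0.0524), ICH 1 (0.0736), ICH 2 (0.128), ICH 3 (0.079) and ICH+PTE 1 (0.118).

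The mixture of ligands shifted with the groups, which is a description with no test, like the ratios given further on, all chosen after values were seen. The 3 genes summed to 4.99 to 6.48 FPKM in sham, 17.4 to 21.4 with ICH and 6.94 to 9.38 in ICH+PTE. In sham Tgfb3 made up most of the sum, with 52.9% to 61.7%, and Tgfb1 held 17.9% to 25.1%. In ICH Tgfb1 held 65.1% to 71.3% and Tgfb3 22.8% to 27.7%. The ICH+PTE libraries lay between, with 28.9% to 45.7% for Tgfb1 and 42.6% to 48.4% for Tgfb3. Tgfb3 was therefore the leading ligand in all sham libraries, and Tgfb1 in all ICH libraries. In ICH+PTE the order differed between mice: Tgfb1 (45.7%) was just ahead of Tgfb3 (42.6%) in ICH+PTE 2 and behind it in the other two.

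**Figure D1:**
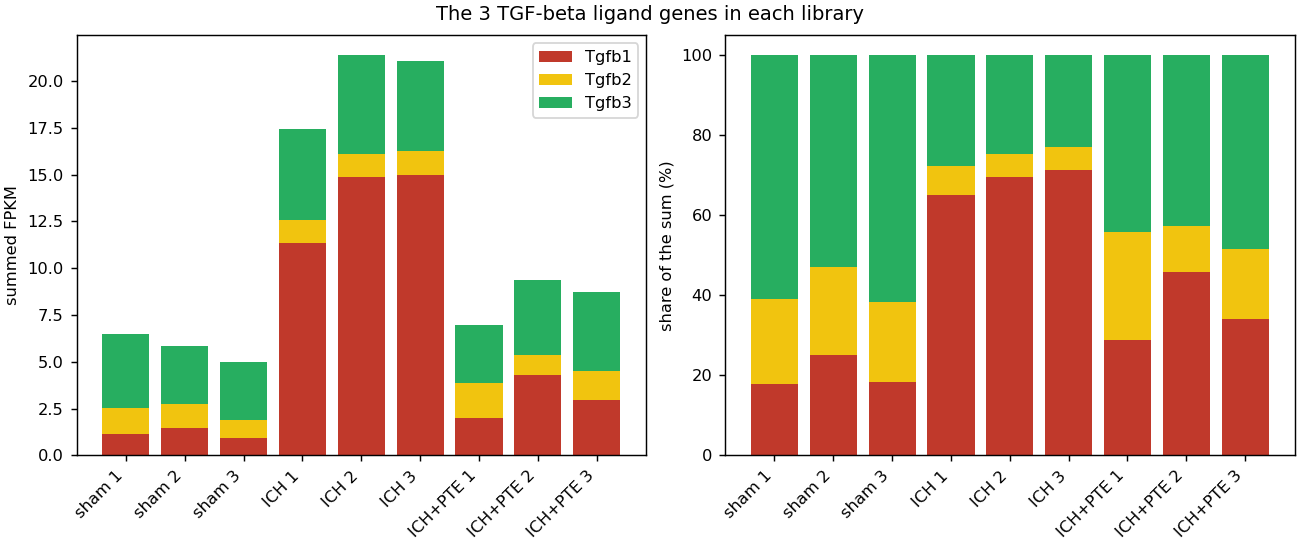
FPKM of Tgfb1, Tgfb2 and Tgfb3 stacked for each of the 9 libraries, as sums (left, FPKM) and as shares of the sum (right, percent). Tgfb1 is 17.9% to 25.1% of the sum in sham, 65.1% to 71.3% with ICH and 28.9% to 45.7% in ICH+PTE.

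Inhba (chromosome 13, 16011851 to 16031621) encodes the subunit of activin A, a related ligand that signals through the same Smad2 and Smad3 and in the forebrain is induced by neuronal activity. It stood at 2.41, 1.84 and 1.23 FPKM in sham, 1.05, 0.945 and 0.883 in ICH and 0.484, 0.592 and 0.651 in ICH+PTE. The 3 groups did not overlap, and sham had the widest spread. Outside sham only ICH 1 reached 1 FPKM, so Inhba passed the filter for testing only with the sham libraries. That favours genes that are highest in sham, so the differences of Inhba from sham are a description. Inhba was lower in ICH than in sham (-0.64 ± 0.20, adjusted p = 0.0157), a call lost without sham 1 (0.0633), ICH 3 (0.05002) or all libraries numbered 1 (0.0597). It was 1.08 lower in ICH+PTE than in sham (-1.08 ± 0.20, adjusted p = 0.0045), while ICH+PTE against ICH was not called (-0.44 ± 0.20, adjusted p = 0.0788; 0.0486 without sham 3). A gene on the other strand, B230303A05Rik, overlaps Inhba and had a mean of 1.235 FPKM in sham, 0.416 in ICH and 1.237 in ICH+PTE. The library protocol marks the strand, but the sources used here do not say whether counting used it, so the level of Inhba is uncertain where the genes overlap.

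Ltbp1 (chromosome 17, 75005568 to 75392512), which binds latent TGF-beta to the matrix, was the least abundant member in sham and ICH. It had 0.599, 0.475 and 0.520 FPKM in sham, 0.492, 0.384 and 0.397 in ICH and 0.882, 0.711 and 0.672 in ICH+PTE, so it did not pass the filter of 1 FPKM in 3 libraries and was not tested with the other 9. All ICH+PTE libraries lay above all others. With every gene tested, the difference was -0.16 ± 0.13 between ICH and sham (adjusted p = 0.445), 0.44 ± 0.13 between ICH+PTE and ICH (adjusted p = 0.0418) and 0.28 ± 0.13 between ICH+PTE and sham (adjusted p = 0.264).

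Both receptors rose in ICH. Tgfbr1 (chromosome 4, 47353222 to 47414931), the type I kinase, had 5.02, 6.20 and 5.67 FPKM in sham, 13.3, 16.8 and 16.4 in ICH and 4.98, 5.35 and 6.03 in ICH+PTE. Tgfbr2 (chromosome 9, 116084293 to 116175360), the ligand-binding type II kinase, had 3.78, 3.70 and 3.37 FPKM in sham, 15.9, 19.9 and 18.5 in ICH and 4.59, 6.57 and 5.78 in ICH+PTE. For both, every ICH library was above every other library. For Tgfbr1 the sham and ICH+PTE libraries overlapped, and for Tgfbr2 they did not. Tgfbr1 was 1.38 ± 0.12 higher in ICH than in sham (adjusted p = 1.06e-05) and Tgfbr2 2.17 ± 0.14 higher (adjusted p = 1.48e-06). From ICH to ICH+PTE Tgfbr1 fell by 1.42 (standard error 0.12, adjusted p = 2.22e-05) and Tgfbr2 fell by 1.60 (0.14, adjusted p = 2.00e-05).

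Against sham, Tgfbr1 in ICH+PTE was not called (-0.04 ± 0.12, adjusted p = 0.837), while Tgfbr2 was still higher (0.57 ± 0.14, adjusted p = 0.0155), a call lost without sham 3 (0.0579). The sign for Tgfbr1 turned to 0.025 without sham 2 and to 0.017 without ICH+PTE 1. The ratio of Tgfbr2 to Tgfbr1 FPKM, which no scaling of a library alters, was 0.594 to 0.754 in sham, 1.12 to 1.19 with ICH and 0.920 to 1.23 in ICH+PTE. The receptor pair thus had more type I than type II transcript in every sham library, and the reverse in every ICH library.

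Smad3 (chromosome 9, 63646767 to 63757994), which carries the signal to the nucleus, had 8.59, 11.1 and 12.7 FPKM in sham, 7.67, 7.24 and 7.96 in ICH and 9.72, 8.64 and 8.42 in ICH+PTE. It was the most abundant member in sham, and all ICH libraries lay below all others. Smad3 was lower in ICH than in sham (-0.46 ± 0.13, adjusted p = 0.0129), a call lost without sham 3 (0.0559). ICH+PTE was not called against ICH (0.21 ± 0.13, adjusted p = 0.199; 0.02001 without haemoglobin and mitochondrial genes) or against sham (-0.25 ± 0.13, adjusted p = 0.213; 0.0430 without sham 1 and 0.0331 without all libraries numbered 1).

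Smad7, the inhibitor, had 5.06, 4.16 and 3.56 FPKM in sham, 4.98, 6.05 and 5.08 in ICH and 2.33, 3.62 and 3.00 in ICH+PTE. It was not called between ICH and sham (0.31 ± 0.16, adjusted p = 0.125; 0.0191 with array weights and 0.0256 without all libraries numbered 1), and those groups overlapped. Every ICH+PTE library was below every ICH library, and Smad7 was lower there (-0.77 ± 0.16, adjusted p = 0.00298). Against sham it did not pass the test (-0.46 ± 0.16, adjusted p = 0.072; 0.0421 when ICH+PTE 2 was left out, and between 0.0234 and 0.0474 with the 3 other scalings of the libraries). The ratio of Smad3 to Smad7 was 1.70 to 3.58 in sham, 1.20 to 1.57 with ICH and 2.39 to 4.17 in ICH+PTE. The Smad ratio was thus lower in every ICH library than in any other.

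Tgfbi (chromosome 13, 56609523 to 56639562), a secreted matrix protein named for its induction by TGF-beta and also made by macrophages, differed most from sham among the members tested. It had 1.93, 1.99 and 1.96 FPKM in sham, 31.0, 57.3 and 59.9 in ICH and 17.2, 24.4 and 16.5 in ICH+PTE. The groups did not overlap, and the sham libraries were almost alike. Mean FPKM in ICH was 25.2-fold that in sham (4.28 ± 0.23, adjusted p = 8.84e-07). It was lower in ICH+PTE than in ICH (-1.29 ± 0.23, adjusted p = 0.00111) but there still 9.89-fold the sham mean (2.99 ± 0.23, adjusted p = 7.48e-05). The ratio of Tgfbi to Tgfb1 was 1.36 to 2.13 in sham, 2.73 to 3.996 with ICH and 5.54 to 8.59 in ICH+PTE, with no overlap between groups. The ratio was therefore highest in the group where both genes lay between sham and ICH.

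**Figure D2:**
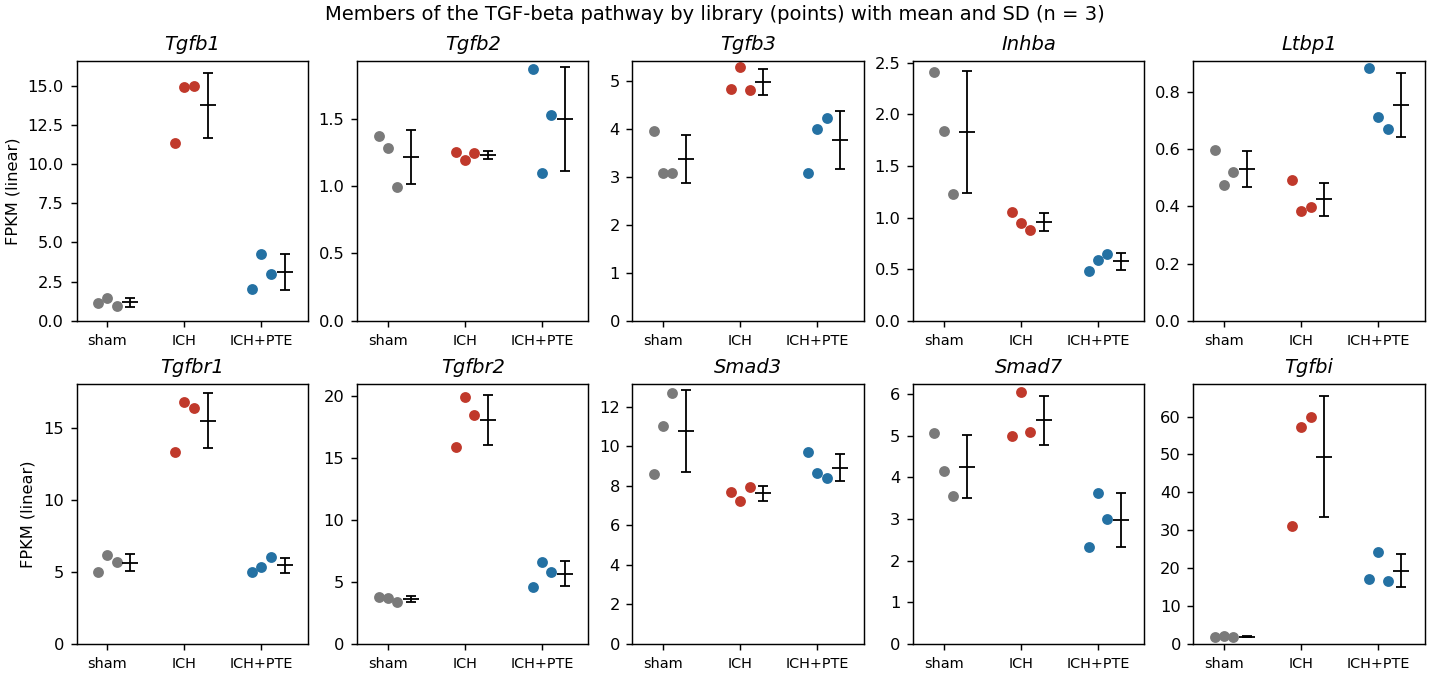
FPKM of the 10 members (1 panel each, linear axis from 0) in each library (points), with the mean and SD of the 3 mice per group beside them. Tgfb1, Tgfbr1, Tgfbr2 and Tgfbi are highest in all 3 ICH libraries, Tgfbi stays at 16.5 to 24.4 in ICH+PTE, and Ltbp1 is highest in ICH+PTE.

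The bases before the start of Tgfb1, Tgfbr1, Tgfbr2 and Tgfbi are shown because these members were higher in ICH than in sham and lower in ICH+PTE than in ICH under every setting tried. Tgfb3 was called in the same directions, less stably, and had no entry in the RefSeq (GRCm38.p6) promoter table. That table held the other 8 of the 9 members looked up, and Smad7 was not looked up. The letters run 5′ to 3′ on the gene's strand and stop before both the RefSeq start and the start in the deposited table, so that Tgfbi has 187 bases and the others 250. Capitals mark the SMAD half-site CAGAC and the core GAGGAA bound by the myeloid factor PU.1, on either strand.
Tgfb1, chr7:25686752-25687001, plus strand: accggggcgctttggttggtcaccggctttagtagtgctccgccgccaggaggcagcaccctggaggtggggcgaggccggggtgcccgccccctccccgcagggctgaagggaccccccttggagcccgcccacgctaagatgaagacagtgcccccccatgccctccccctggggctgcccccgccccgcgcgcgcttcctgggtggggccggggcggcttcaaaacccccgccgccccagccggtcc
Tgfbr1, chr4:47352972-47353221, plus strand: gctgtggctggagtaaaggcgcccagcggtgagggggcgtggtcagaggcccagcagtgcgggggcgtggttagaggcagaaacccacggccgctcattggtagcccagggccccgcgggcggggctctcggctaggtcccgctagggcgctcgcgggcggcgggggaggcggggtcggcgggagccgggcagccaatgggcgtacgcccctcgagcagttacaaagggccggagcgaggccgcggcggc
Tgfbr2, chr9:116175364-116175613, minus strand: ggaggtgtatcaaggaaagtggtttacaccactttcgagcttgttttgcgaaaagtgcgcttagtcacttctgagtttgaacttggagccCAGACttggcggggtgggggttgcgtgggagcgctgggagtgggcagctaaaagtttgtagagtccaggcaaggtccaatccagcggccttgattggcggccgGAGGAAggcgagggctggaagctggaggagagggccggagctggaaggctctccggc
Tgfbi, chr13:56609336-56609522, plus strand: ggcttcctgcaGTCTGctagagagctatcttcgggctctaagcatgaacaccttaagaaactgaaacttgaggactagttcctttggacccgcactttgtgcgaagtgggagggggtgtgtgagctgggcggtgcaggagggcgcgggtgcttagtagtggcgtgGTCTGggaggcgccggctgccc
Tgfbr2 held 1 CAGAC, 160 bases before the RefSeq start, and 1 GAGGAA at 57 bases. Tgfbi held CAGAC on the other strand (GTCTG) at 239 and 85 bases, and Tgfb1 and Tgfbr1, whose windows are rich in G and C, held neither. Among all 32851 RefSeq windows of 250 bases, 42.2% held CAGAC and 23.3% GAGGAA, so a match is common. The AP-1 motif TGANTCA, held by 6.75% of all windows, was in 0 of the 8 member windows. No matches overlap in the windows shown, and a match is not evidence of binding.

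Read together, 7 of the 9 members tested were called between ICH and sham, 5 higher and 2 lower, beside 63.7% of all genes tested (31.6% higher and 32.1% lower). The groups did not overlap for the same number of tested members, 5 higher and 2 lower, beside 73.5% of all genes (35.7% higher and 37.8% lower). Between ICH+PTE and ICH, 6 of 9 were called, all lower (Tgfb1, Tgfb3, Tgfbr1, Tgfbr2, Tgfbi and Smad7), beside 56.9% of all genes (26.4% higher and 30.5% lower). For 7 of the 9, ICH+PTE lay wholly below ICH and for 1 wholly above, beside 64.7% of all genes without overlap (30.3% above and 34.5% below). Between ICH+PTE and sham, 4 of 9 were called, with Tgfb1, Tgfbr2 and Tgfbi higher and Inhba lower, beside 23.4% of all genes (11.3% higher and 12.1% lower). The same count did not overlap, beside 38.6% (18.0% higher and 20.7% lower). The median difference of the 9 was 0.51, -0.77 and 0.14 in the 3 comparisons, against -0.02, -0.02 and -0.03 over all genes tested. ICH libraries enter the first 2 comparisons and sham libraries the first and the third, so the comparisons are not independent. Inhba passed the filter only with the sham libraries, so the counts of members lower than sham are partly set by the filter. Rescaling to TPM gave a median of all genes of -0.189 between ICH and sham and 0.011 between ICH+PTE and ICH, and TPM without haemoglobin and mitochondrial genes gave -0.315 and 0.238. The share of called genes that were higher was 49.6% between ICH and sham, 39.99% with TPM and 33.0% with TPM without those genes. Between ICH+PTE and ICH it was 46.5%, 48.3% and 66.3%, and between ICH+PTE and sham 48.2%, 30.5% and 45.4%.

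**Figure D3:**
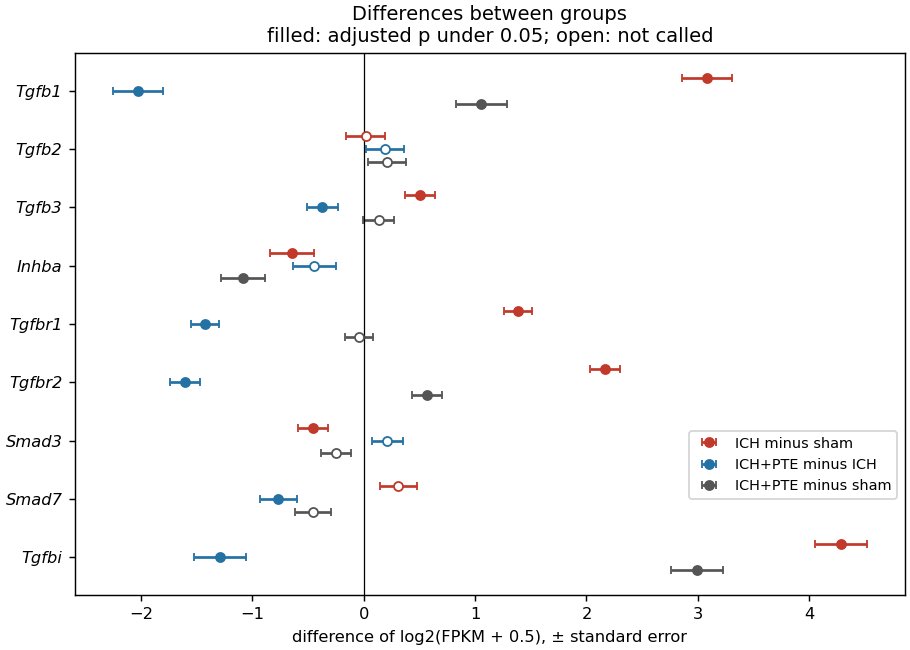
Differences of log2(FPKM + 0.5) with standard errors for the 9 members tested in the 3 comparisons; filled points had an adjusted p under 0.05. Tgfbi and Tgfb1 lie farthest from 0 between ICH and sham (4.28 and 3.08), and Tgfbr1 returns to -0.04 between ICH+PTE and sham.

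The order of levels within a group also changed. In sham, Smad3 (mean 10.8 FPKM) was clear of Tgfbr1 (5.63), and the ranges of neighbours from Tgfbr1 through Smad7 and Tgfbr2 to Tgfb3 overlapped, as did those from Tgfbi through Inhba and Tgfb2 to Tgfb1. In ICH the first was Tgfbi (49.4), followed by Tgfbr2 (18.1), Tgfbr1 (15.5) and Tgfb1 (13.7), of which the last 3 overlapped as neighbours. In ICH+PTE Tgfbi (19.4) and Smad3 (8.93) led, clear of each other and of the receptors. Ltbp1 was last in sham and ICH, and Inhba in ICH+PTE.

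Genes with the most similar profile over the 9 libraries are given as a description, among 12234 genes with a mean of at least 2 FPKM. The 9 points share the 3 groups, so a high correlation says mainly that 2 genes follow the same groups. Closest to Tgfb1 were Fermt3, the integrin activator of blood cells (r = 0.999), the ribosome-binding protein Rrbp1 (0.999) and the haematopoietic GTPase Rac2 (0.999). Near Tgfbr2 were the macrophage metal transporter Slc11a1 (0.999) and Galnt12 (0.999). Tgfbr1 was closest to Susd3 (0.996), the growth factor Igf1 (0.994) and the lysosomal membrane protein Scarb2 (0.994). Tgfbi followed the interferon-induced Ifitm2 (0.995), G6pdx (0.994) and the cytoskeletal linker Msn (0.993). Tgfb3 was closest to Tmem230 (0.988), Dynlt1c (0.976) and Sh3d19 (0.973). Smad7 was closest to Bin1 (0.993), the myelin protein Pllp (0.991) and Pde6d (0.989). The profiles of Inhba (Idh3g 0.977, Hexim1 0.969, Nprl2 0.968), Smad3 (Disp3 0.954, Neurl1b 0.948) and Tgfb2 (2300009A05Rik 0.922, Pitpna 0.906, Chmp2b 0.887) had less close neighbours. Immune-cell genes were thus near Tgfb1 and Tgfbr2, and a myelin gene near Smad7.

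The wider pathway was described with 8 lists. In each, the genes named are those called in ICH against sham with the 2 greatest differences upward and the 2 greatest downward; Timp1, Tagln, Nrros, Itgb8, Ltbp2, Bmp4, P2ry12 and Tmem119 were added after their values were seen. Some genes passed the filter only with the ICH libraries, which favours genes that are highest in ICH: 2 of the 15 tested latency genes, 3 of the 10 other ligands, 5 of the 24 targets, and 1 each of the intracellular inhibitors and the secreted antagonists. Other genes, such as Bmp2, passed only with the sham libraries, which favours genes that are highest in sham. How many did so was not counted. The counts of these lists, higher and lower, are therefore partly set by the filter, and are a description.

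Genes for storage and release of latent TGF-beta were mostly high in ICH: 13 of the 15 tested of 17 were higher and 0 lower (median 1.48), beside 31.6% of all genes higher. Thrombospondin 1 (Thbs1), which frees the latent ligand, had a mean of 1.73 ± 1.75 FPKM in sham, 35.6 ± 9.17 in ICH (± SD, n = 3) and 10.7 ± 3.04 in ICH+PTE. The plasminogen activator Plau had 1.28 ± 0.346, 31.1 ± 6.43 and 1.73 ± 0.733. Thbs1 was thus still higher than sham in ICH+PTE (2.57 ± 0.44, adjusted p = 0.00336), and Plau was not called (0.29 ± 0.25, adjusted p = 0.425). Nrros, which holds latent TGF-beta on microglia, stood at 1.51 ± 0.262, 16.4 ± 3.32 and 2.77 ± 0.608 FPKM. Ltbp2, a relative of Ltbp1, stood at 0.127 ± 0.0357, 2.20 ± 0.377 and 0.157 ± 0.0142. Ltbp2 passed the filter only with the ICH libraries, so its values are a description. Between ICH+PTE and ICH, 12 of the 15 were lower and 1 higher (median -1.09), beside 30.5% of all genes lower. The 1 that was higher was Itgb8, the integrin subunit with which glia activate TGF-beta (0.67 ± 0.14, adjusted p = 0.00285), which was not called between ICH and sham (-0.25 ± 0.14, adjusted p = 0.15; called lower without sham 1 with 0.032, with array weights with 0.0123 and without haemoglobin and mitochondrial genes with 0.0137).

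The list of other ligands went both ways, with 5 higher and 3 lower of the 10 tested of 17 (80% called, median 0.56, beside 63.7% of all genes), 8 calls that became 5 without sham 2, sham 3 or ICH 3. Among the 5 higher is Bmp1 (1.17 ± 0.11, adjusted p = 1.57e-05), which despite its name encodes a protease and not a ligand. Bmp2, among the 3 lower, passed the filter only with the sham libraries. Gdf3 was at 3.12 ± 0.989 FPKM in ICH against 0.0344 ± 0.0314 in sham and 0.0308 ± 0.0533 in ICH+PTE. The stress-induced Gdf15 was at 0.180 ± 0.142, 2.69 ± 0.595 and 0.645 ± 0.305 FPKM in sham, ICH and ICH+PTE. Bmp4, a morphogen of the same family, was at 0.674 ± 0.297, 3.13 ± 0.547 and 0.271 ± 0.158. These 3 genes passed the filter only with the ICH libraries, which favours genes that are high there, so their values are a description. Inha, the inhibin alpha chain, was at 16.2 ± 1.92, 8.25 ± 0.865 and 12.5 ± 2.37 FPKM, and its fall in ICH was called (-0.93 ± 0.15, adjusted p = 3.33e-04). Bmp6 was at 2.42 ± 0.449 and 1.51 ± 0.433 FPKM (-0.55 ± 0.22, adjusted p = 0.047), a call lost without sham 1 (0.151), sham 2 (0.0725), sham 3 (0.0617), ICH 2 (0.15), ICH 3 (0.131) or ICH+PTE 2 (0.0579).

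Among the 12 other receptors, ICH against sham gave 3 calls upward and 4 downward (58.3% called, below the 63.7% of all genes; median -0.22; 11 were called without haemoglobin and mitochondrial genes). Endoglin (Eng), a co-receptor of endothelium, rose from 5.60 ± 0.822 to 19.9 ± 2.31 FPKM and was at 9.35 ± 1.99 in ICH+PTE. Cd109, a co-receptor that restrains TGF-beta signalling, was at 0.477 ± 0.224, 2.91 ± 0.199 and 2.95 ± 0.470. Cd109 thus had similar means in both injured groups (difference 0.01 ± 0.18, adjusted p = 0.964), and higher than sham in both (1.82 ± 0.18 and 1.83 ± 0.18, adjusted p = 1.71e-05 and 1.98e-04). The activin type I receptor Acvr1b fell from 24.0 ± 1.72 to 11.6 ± 0.728 FPKM and was at 22.4 ± 3.86 in ICH+PTE. Acvr1c, the Nodal and activin receptor known as ALK7, fell from 4.70 ± 0.257 to 1.70 ± 0.803 and was at 1.74 ± 0.498 in ICH+PTE, lower than sham in both (-1.31 ± 0.25 and -1.24 ± 0.25, adjusted p = 0.00124 and 0.00763). Both activin receptors were thus lower in ICH than in sham, and in ICH+PTE Acvr1c was called against sham and Acvr1b was not (-0.11 ± 0.12, adjusted p = 0.568); that they differ was not tested.

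Of the other SMADs and nuclear partners, 2 were higher and 5 lower of the 9 tested of 10 (77.8% called, median -0.32, beside 63.7% of all genes), 7 calls that became 4 without sham 2, sham 3, ICH 2 or ICH 3. The repressor Zeb2 (0.69 ± 0.11, adjusted p = 4.68e-04) and the BMP-pathway Smad1 (0.60 ± 0.13, adjusted p = 0.00257) rose. Zeb1 was lower (-0.62 ± 0.15, adjusted p = 0.00531). Smad9 was lower too (-0.50 ± 0.16, adjusted p = 0.0195), a call lost without sham 2 (0.0508), sham 3 (0.0804), ICH 2 (0.0718) or ICH 3 (0.0652). Smad1 was at 2.97 ± 0.126, 4.77 ± 0.335 and 4.81 ± 0.938 FPKM in sham, ICH and ICH+PTE, so unlike Zeb2 (3.44 ± 0.197, 5.89 ± 0.787 and 3.74 ± 0.222) it had a similar mean in both injured groups.

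Of the intracellular inhibitors, 4 were higher and 3 lower of the 11 tested of 12 (median -0.07), or 63.6% called, which is the share of all genes (63.7%). The co-repressor Tgif1 (2.37 ± 0.16, adjusted p = 2.05e-06) and Pmepa1 (0.85 ± 0.14, adjusted p = 4.60e-04), a feedback inhibitor induced by TGF-beta, rose in ICH. In ICH+PTE Pmepa1 was lower than in ICH (-1.28 ± 0.14, adjusted p = 7.30e-05), at a mean of 8.07 ± 1.57 FPKM against 20.05 ± 1.902 in ICH and 10.9 ± 0.821 in sham. The ubiquitin ligase Nedd4l (-1.25 ± 0.14, adjusted p = 3.97e-05) and the phosphatase Ppm1a (-0.98 ± 0.10, adjusted p = 2.08e-05) fell. Of the secreted antagonists 3 were higher and 2 lower of 9 tested of 12 (55.6% called, median 0.24), below the share of all genes. The proteoglycans biglycan (Bgn, 3.38 ± 0.20, adjusted p = 1.13e-06) and decorin (Dcn, 2.61 ± 0.12, adjusted p = 5.12e-07), which bind TGF-beta, rose, and the BMP antagonist Nog (-0.94 ± 0.20, adjusted p = 0.00241) fell. Dcn was at 10.5 ± 1.13 FPKM in ICH and 6.88 ± 0.784 in ICH+PTE, and Bgn at 18.3 ± 4.40 and 2.6003 ± 0.694, beside 1.303 ± 0.151 and 1.28 ± 0.226 in sham.

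Genes listed as targets of TGF-beta had the highest share of calls among the 8 lists between ICH and sham. Of the 24 tested of 25, 23 were higher and 0 lower (median 2.40), beside 31.6% of all genes higher. Whether TGF-beta raises each listed gene in these samples, Id1, Id2 and Id3 included, was not tested. Fibroblasts, mural cells and endothelium also express many genes of the list. The marker sums of these cells, given above, were higher in every ICH library than in any sham library. Col1a1, Col3a1 and Acta2 are in both kinds of list. Their means in ICH were 66.1, 38.1 and 20.2 FPKM, beside a sum of 156 to 261 for mural cells and fibroblasts. That sum is thus not independent of the targets, and the part of these cells in the result was not tested. The fibrillar collagens Col3a1 (0.718 ± 0.227, 38.1 ± 16.0 and 1.26 ± 0.426 FPKM in sham, ICH and ICH+PTE) and Col1a1 (2.62 ± 2.75, 66.1 ± 26.5 and 1.95 ± 0.228) led the list. In ICH+PTE, 16 of the 24 were lower than in ICH and 0 higher (median -1.03), beside 30.5% of all genes lower, and 14 were still higher than in sham (median 0.76), beside 11.3%. Neither collagen was called against sham there (0.51 ± 0.28 and -0.0025 ± 0.48, adjusted p = 0.208 and 0.998). Col3a1 passed the filter only with the ICH libraries, which favours genes that are high there, so its values are a description. The sign for Col1a1 was positive with a pseudocount of 0.1 (0.062), without haemoglobin and mitochondrial genes (0.035), with array weights (0.47) and without sham 1 (0.68).

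Some targets had high means in both injured groups. The protease inhibitor Timp1 was at 3.71 ± 2.54, 86.1 ± 6.63 and 66.6 ± 15.0 FPKM, and the smooth-muscle gene Tagln at 3.27 ± 0.252, 23.6 ± 4.84 and 28.3 ± 17.9. Both were higher in ICH+PTE than in sham, by 4.18 ± 0.39 (adjusted p = 1.72e-04) and 2.75 ± 0.35 (8.40e-04). Timp1 and Tagln were not called between ICH+PTE and ICH (-0.39 ± 0.39 and 0.09 ± 0.35, adjusted p = 0.415 and 0.837). Whether these 2 targets differ from the collagens was not tested.

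**Figure D4:**
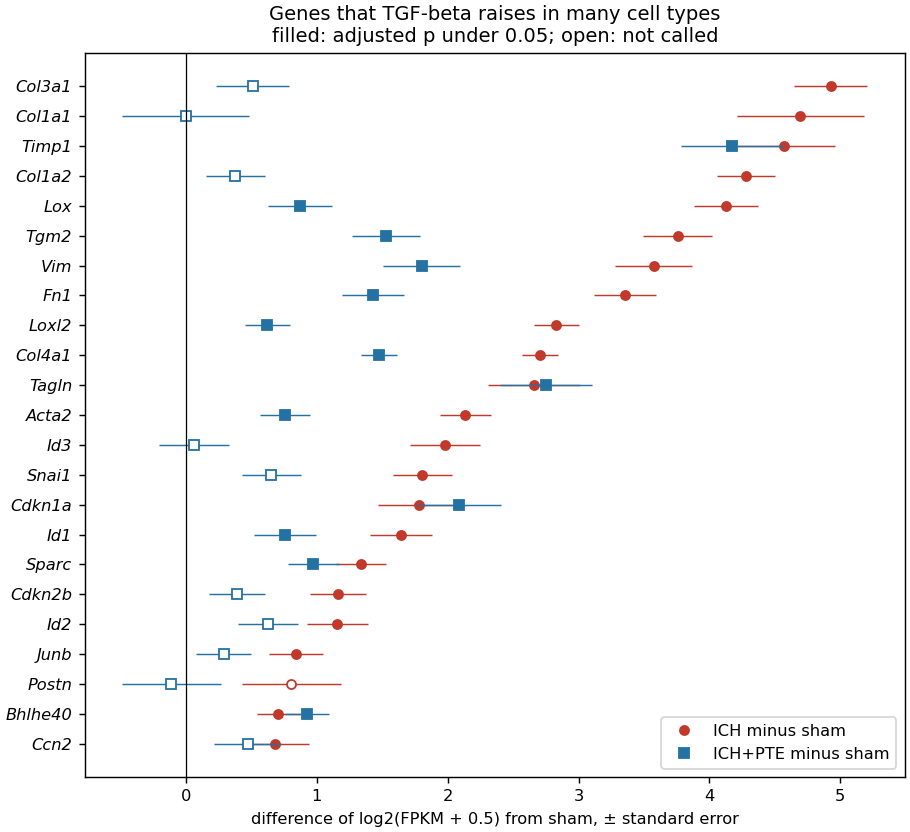
Differences of log2(FPKM + 0.5) from sham, with standard errors, for 23 of the 24 tested genes listed as targets of TGF-beta. ICH is shown as circles and ICH+PTE as squares, and filled symbols had an adjusted p under 0.05. Col3a1 and Col1a1 are at 4.93 and 4.69 in ICH and at 0.51 and -0.0025 in ICH+PTE, while Timp1 is at 4.57 and 4.18. Of the tested targets, 5 passed the filter for testing only with the ICH libraries (Col3a1, Lox, Loxl2, Snai1 and Cdkn2b). That favours genes that are high in ICH, so their values are a description.

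Microglial genes that depend on TGF-beta in mice were higher in ICH than in sham for 8 of 12 and lower for 0 (median 1.28), or 66.7% called beside 63.7% of all genes, of which 31.6% were higher. With pterostilbene 11 of the 12 were lower than in ICH alone and 0 higher (median -1.29), beside 56.9% of all genes called and 30.5% lower. Against sham, 2 were higher and 4 lower in ICH+PTE (median -0.40, beside 23.4% of all genes called). These 6 calls became 3 without sham 2. The 2 higher were Mertk and Sparc, and Sparc is also counted in the list of targets. The microglial marker sums given above were also higher in every ICH library than in any other, and all 6 of those markers are in this list; their part in the result was not tested. The Fc receptor-like Fcrls was at 22.8 ± 4.71, 201 ± 28.5 and 3.94 ± 2.54 FPKM in the 3 groups. Fcrls was thus lower in ICH+PTE than in sham (-2.6001 ± 0.43, adjusted p = 0.00267). Tmem119 was at 11.9 ± 1.75, 51.9 ± 9.27 and 8.06 ± 3.04 FPKM in the 3 groups. P2ry12 was at 13.9 ± 1.67, 16.7 ± 0.581 and 9.01 ± 1.85. P2ry12 was lower in ICH+PTE than in ICH (-0.87 ± 0.15, adjusted p = 7.37e-04) and than in sham (-0.61 ± 0.15, adjusted p = 0.0156; 0.0612 without sham 2).

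**Figure D5:**
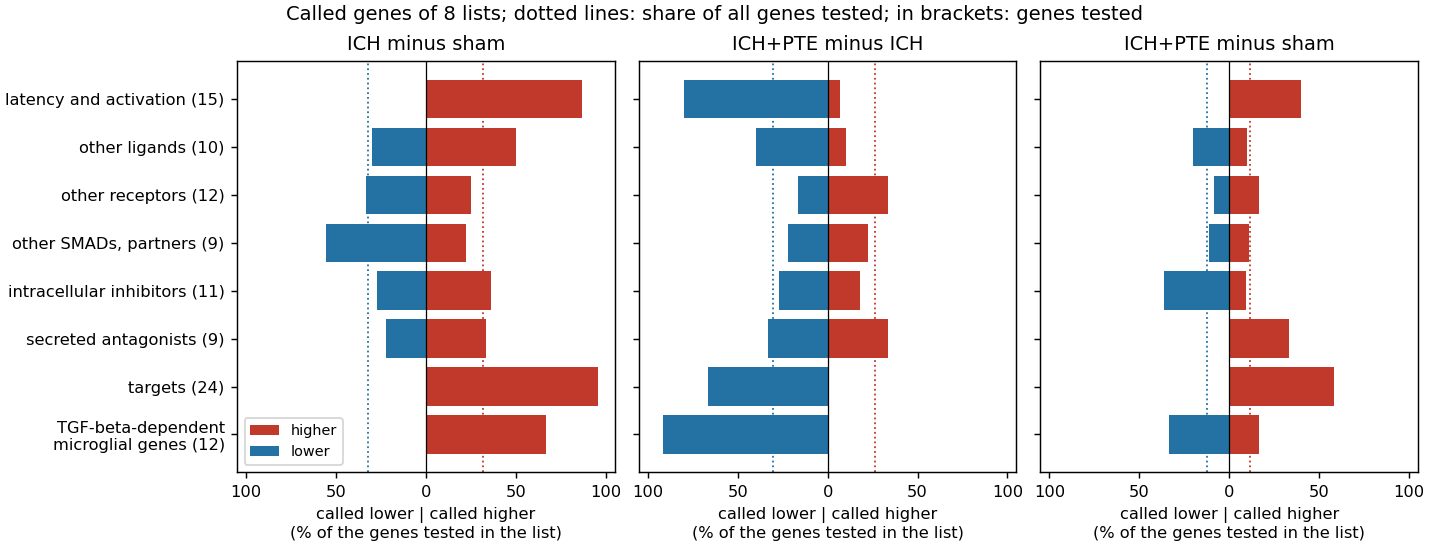
Share of the tested genes of 8 lists (number tested in brackets) called higher (right of 0) or lower (left of 0), in percent, for each of the 3 comparisons; dotted lines give the share of all genes tested. Of the targets, 23 of 24 are higher in ICH than in sham, against 31.6% of all genes, and 14 of 24 in ICH+PTE than in sham, against 11.3%.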

How the data were processed

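Polyadenylated RNA from the brains of 9 mice was sequenced, 3 each of sham, ICH and ICH+PTE. The FPKM values were computed and deposited by the authors as 1 table of 36346 genes with a column per library. Per the submitters' processing notes, cutadapt 1.9, HISAT2 2.0.4 and StringTie 1.3.4d were used; of the genome build nothing is given in the sources used here. GENCODE M21 (GRCm38) has the same start, end and strand for all 10 members and for 87.9% of the 36224 identifiers it shares with the table. Samples were grouped by their titles, and 0 FPKM columns were left unmatched. At most 12.6% of the low values of single-exon genes were whole multiples of 1 read (within 0.02 of a multiple) at the step that fitted best, so reads were not recovered, depth is unknown and no counting interval is given.

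Genes with at least 1 FPKM in at least 3 libraries (15376) were tested on log2(FPKM + 0.5) with limma 3.58.1 in R 4.3.3, fitting 9 libraries together with a mean for each group, which leaves 6 residual degrees of freedom, and a trended prior variance. Calls were made where the p adjusted over all genes tested (Benjamini-Hochberg) was under 0.05. For low genes, differences on this scale are smaller than on the FPKM scale. The fit was tested on simulated data.

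The alternatives were other pseudocounts (0.1 and 1), no filter, quantile normalization, rescaling to TPM with and without haemoglobin and mitochondrial genes, only the 2 groups compared, array weights, a replicate block and leaving out each library. Leaving out all libraries numbered 1 was added after the data were seen. The members and lists were chosen with earlier results of these data known, so no list was tested as a set. In each list of pathway genes those called in ICH against sham with a mean of at least 2 FPKM in the higher group are named, up to the 2 greatest differences upward and downward. For each member the 3 genes with the highest correlation are named. Some genes that these rules choose are not reported here.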

Additional observations from a re-analysis of the deposited data

How the results depend on the processing

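Each result was recomputed under 19 other settings. The 9 members gave 513 such values, of which 476 kept direction and call, 21 lost and 10 gained a call and 6 changed sign. Tgfb1, Tgfbr1, Tgfbr2, Tgfbi and Smad7 kept the call between ICH+PTE and ICH in all 19, and the first 4 of them that between ICH and sham. Members called numbered 6 to 8, 5 or 6, and 3 to 5 in the 3 comparisons, beside 7, 6 and 4. Genes called between ICH+PTE and sham numbered 2125 (without sham 3) to 3712 (without ICH+PTE 1) when 1 library was left out, beside 3603; the cause was not tested. Of 1995 values for other genes chosen to be named, 1863 kept direction and call. Of 456 counts over the 8 lists, 32 moved by more than 1.5 times, 0 of them for latency genes or targets.

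Signs changed mostly for values near 0 in the main fit, though P2ry12 between ICH and sham was at 0.26 ± 0.15. Some values moved far from 0, such as Col1a1 and Tagln below. The cause was not tested. With quantile normalization the differences were -0.13 for Tgfb2 (ICH minus sham), 0.052 for Smad1 (ICH+PTE minus ICH) and -0.079 for Ltbp2 (ICH+PTE minus sham). With TPM they were -0.13 for Tgfb2, 0.033 for Smad1 and -0.016 for Zeb2 (ICH+PTE minus sham). Without haemoglobin and mitochondrial genes they were -0.25 for Tgfb2, -0.034 for P2ry12 (ICH minus sham), 0.27 for Smad1, 0.087 for Bmp6 (ICH+PTE minus ICH) and 0.035 for Col1a1 (ICH+PTE minus sham). With array weights they were -0.0066 for Cd109 (ICH+PTE minus ICH), 0.47 for Col1a1 and 0.0032 for Gdf3 (ICH+PTE minus sham). A pseudocount of 0.1 gave 0.062 for Col1a1, and 2 libraries per group gave 0.75 for Col1a1 and -0.087 for Cd109. Leaving out 1 library gave -0.079 to 0.084 for Tgfb2 (ICH minus sham). Between ICH+PTE and ICH it gave -0.14 to 0.079 for Smad1, -0.30 to 0.054 for Bmp6, -0.095 to 0.094 for Cd109, -0.38 to 0.51 for Tagln and -0.21 to 0.33 for Acvr1c. Between ICH+PTE and sham it gave -0.35 to 0.68 for Col1a1, -0.094 to 0.028 for Gdf3, -0.11 to 0.025 for Tgfbr1 and -0.23 to 0.0071 for Acvr1b.

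The replicate block left 7, 5 and 4 members called; the adjusted p of Tgfb3 between ICH+PTE and ICH became 0.0643. Deviations of libraries with the same number correlated at 0.0031 to 0.25 (median 0.081) and those with different numbers at -0.30 to 0.19 (median -0.068). Above 0.1 were 3 of the 9 same-number pairs and 4 of the 18 others, and not every library was closest to its own number. Choroid plexus and ependymal markers, as given above, were highest in the library numbered 1 of each group. The main fit did not take the numbers to pair the mice, and whether they do was not tested.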
